A study of Mus musculus with 6 samples.

Results

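Genes of the mitochondrial ribosome and of mitochondrial gene expression were followed in mouse neural stem cells that carried a short hairpin RNA (shRNA) against Sox4 or a scrambled one. The members are the rows of the authors' comparison that carry a single gene symbol and name a mitochondrial ribosomal protein (Mrpl or Mrps with a number) or 1 of a set of factors that copy, transcribe, stabilise or translate mitochondrial DNA and RNA. They make up 93 of the 12316 rows and 92 distinct symbols, since Mrps28 stands in 2 rows. By role they are 47 rows for the large ribosomal subunit, 28 for the small subunit, 6 translation factors, 7 genes named for transcription, 3 for replication and 2 for RNA stability.

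The cells came from CD-1 mouse embryos at E14.5, were obtained commercially, and were kept as a monolayer on laminin with EGF and bFGF. Per the labels, 2 libraries carried Sox4 shRNA 1 (TRCN0000012078), 2 carried Sox4 shRNA 2 (TRCN0000012080) and 2 carried the scrambled hairpin (SHC002), numbered p1 and p2 in each group. All 6 were transduced with lentivirus, so the controls carry a hairpin too, and were selected with puromycin at 0.5 µg/mL before poly(A) RNA was sequenced. The authors' table gives 1 level for each of 2 conditions, and its header states neither which conditions these are nor which libraries entered them. Differences are therefore given as second condition over first, and the depth of each library is unknown. No value per library was at hand, so no standard deviation can be given. Which libraries gave the spread behind the authors' Cuffdiff p-values is not known, and that spread may be technical.

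Mitochondria keep a small genome that encodes a few subunits of the respiratory chain along with the ribosomal and transfer RNAs needed to make them. All proteins of the mitochondrial ribosome, and the enzymes that replicate, transcribe and translate that genome, are encoded in the nucleus and imported. The finished ribosome sits at the inner membrane, where it feeds the membrane proteins it makes into the respiratory complexes.

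In the authors' deposited table Sox4, the targeted gene, had a level of 83.9 FPKM in the second and 126.8 FPKM in the first condition (Cuffdiff q 0.0543), outside the threshold. Levels are in FPKM (fragments per kilobase of transcript, scaled to sequencing depth), the unit Cuffdiff writes in these columns. Called genes are those with the authors' flag, set at a q under 0.05. Of the neural stem cell and radial glia markers, 8 of 8 had a row, as did 6 of 9 oligodendrocyte lineage and 4 of 7 neuronal markers. Fibroblast, microglial and endothelial markers had 0 of 6, 0 of 5 and 0 of 4. A missing row does not show that a gene was not expressed. The summed level of 7 astrocyte markers was 135.9 in the second and 243.1 in the first condition, with Gfap, Agt, Aqp4 and Slc1a2 called lower and Aldh1l1 called higher. Other called markers included, for neural stem cells and radial glia, Nes, higher in the second condition, and Hes5 and Fabp7, lower in it. Elavl4, of neurons, and Gpr17, of the oligodendrocyte lineage, were also called lower. They do not stand for their lists, where 4 of 8 stem cell and 2 of 4 neuronal markers had a positive log2 fold. Sox2, Msi1, Pax6, Slc1a3 and Vim lay between -0.23 and 0.13, and Olig1, Olig2, Pdgfra and Cspg4 between -0.21 and 0.08, none of them called. The part of these marker differences in the values below was not tested, and in bulk RNA fewer cells of a type and less RNA per cell cannot be told apart.

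Across the whole set the levels of both conditions lay close together. The median level was 29.8 FPKM in the second and 30.9 FPKM in the first condition, against 12.7 and 12.5 FPKM over all rows. The range ran from 1.39 to 145 FPKM in the second and from 1.65 to 152 FPKM in the first condition. Every member was above 1 FPKM in its higher condition, so 93 of 93 passed that filter. The most abundant members were Mrpl42, Mrps12 and Tufm in the second condition, and the least abundant was Polg2.

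**Figure D1:**
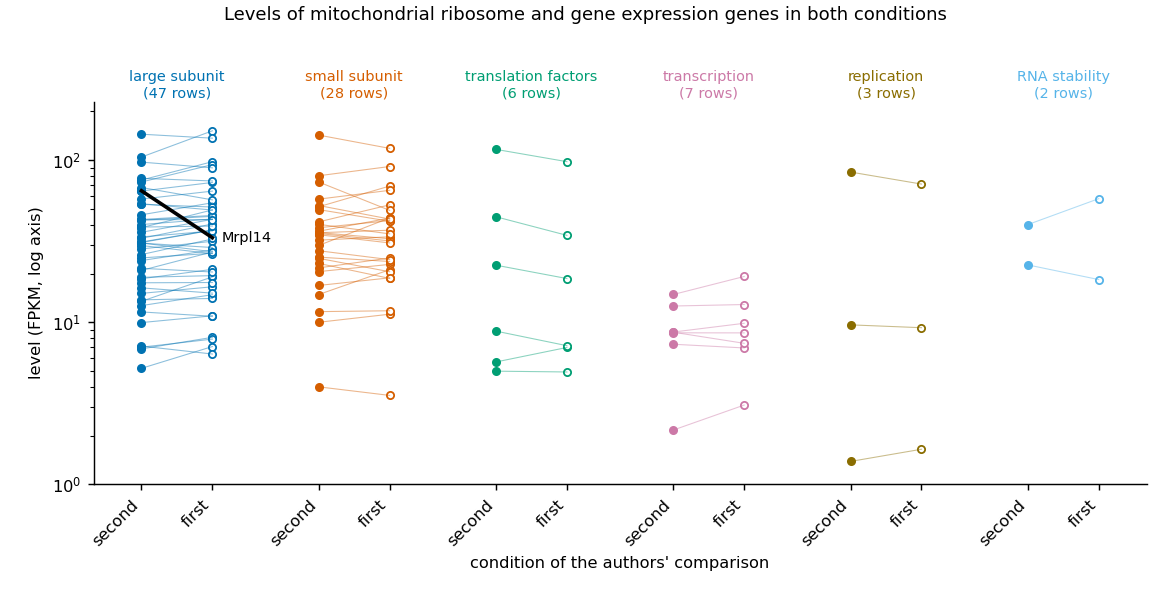
Level of each member in the second condition (filled) and in the first condition (open), in FPKM on a log axis, with a line joining the values of each gene, by role. Most lines are close to flat; the thick black line is Mrpl14, at 64.8 in the second and 33.3 FPKM in the first condition.

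A single member, Mrpl14, was called: 1 of 93 rows rose and 0 fell, where the flag was set for 4.99% of all rows (3.17% higher and 1.83% lower). The members' share is 1.08%. Among other rows of like transcript length and level the share called was 3.36%, over 5385 rows. These share the members' range of length but are longer at the median, 2784 nt against 1498 nt. At an unadjusted Cuffdiff p under 0.05 there were 5 members, or 5.38%, where rows of like length and level gave 13.8% and all rows 17.5%. Of these 2 were higher and 3 lower in the second condition, where all rows gave 9.96% higher and 7.53% lower. At a Cuffdiff q under 0.01 the 1 call remained, Mrpl14, beside 2.54% of all rows. Positive log2 folds numbered 38 and negative ones 55, where all rows gave 50.5% positive and 49.5% negative. An absolute log2 fold above 0.5 was seen for 8 members, or 8.602%, against 9.36% of the rows of like length and level and 17.2% of all rows. The share of members with a large fold was thus near that of rows of like length and level, while the shares called and at an unadjusted p under 0.05 were below theirs, with no test of these differences.

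**Figure D2:**
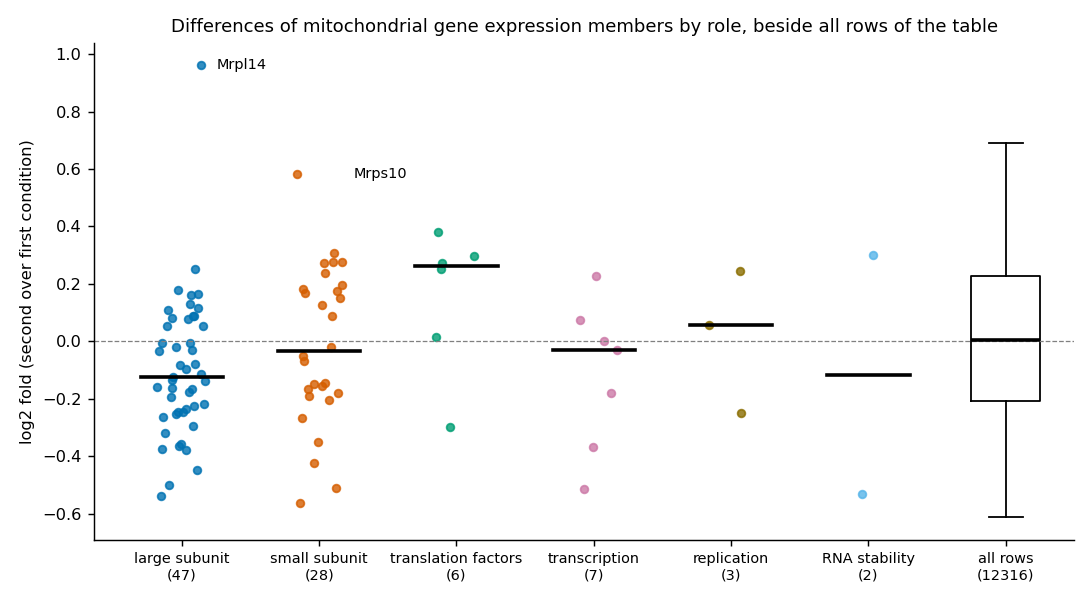
Log2 fold of each member (second over first condition) by role, with the median of each role as a black bar; the box at the right gives the median, quartiles and the 5th to 95th percentile range of all 12316 rows. Mrpl14 at 0.96 and Mrps10 at 0.58 lie above the rest, and the large subunit's median is -0.12.

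Large subunit genes had mostly negative log2 folds, and Mrpl14 was the 1 call. Of 47 rows, 14 had a positive log2 fold, 1 was called higher and 0 were called lower. That is 2.13% called, against 3.36% of rows of like length and level and 4.99% of all rows. The median log2 fold was -0.12, against -0.04 over rows of like length and level and 0.0033 over all rows. Rows of like length and level were positive in 44.1% of cases, and the large subunit in 29.8%. Those rows are longer, however, with a median of 2784 nt against 1339 nt for the large subunit. All rows of up to 1231 nt had a median log2 fold of -0.22. With the trend of the log2 fold with transcript length taken off, the large subunit's median turned to 0.01. Its quartiles, before that step, were -0.25 and 0.07. Mrpl14, a conserved protein of the face that meets the small subunit, rose to 64.8 FPKM in the second condition, against 33.3 FPKM in the first, in the authors' deposited table. The authors' deposited table gives this 1.95-fold difference as 0.96 on the log2 scale (Cuffdiff q 0.00892). An approximate 95% interval from 0.45 to 1.47, taken from the log2 fold and the authors' p under a normal approximation, goes with it. Mrpl14 lies on chromosome 17 from 45686322 to 45698495 on the plus strand (GRCm38), and its exons overlap those of Tmem63b on the other strand. Tmem63b, a membrane protein gene, stood at 76.1 in the second and 79.5 FPKM in the first condition in the authors' deposited table. Whether reads were assigned by strand is not given in the sources used here, so reads of both genes may not have been kept apart.

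At the low end, Mrpl52, a subunit particular to mitochondria, in the authors' deposited table had 105 FPKM in the second and 152 FPKM in the first condition. The authors' deposited table puts Mrpl52 at -0.54 on the log2 scale (Cuffdiff q 0.159), outside the threshold. With it, the large subunit members of highest level in the second condition were Mrpl42, at 145 in the second and 137 FPKM in the first condition, and Mrpl28, at 97.4 and 89.8 FPKM, in the authors' deposited table. Mrpl42 is particular to mitochondria, and Mrpl28 has a bacterial counterpart. Their approximate intervals, -0.29 to 0.46 and -0.24 to 0.48, include 0. After the structure of the mammalian mitochondrial ribosome, large subunit proteins with a bacterial counterpart had a median log2 fold of -0.13 over 30 rows, and those particular to mitochondria had one of -0.13 over 18 rows. The division by structure was chosen after the values were seen.

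Small subunit genes were spread evenly about 0, with Mrps10 at the high and Mrps18c at the low end. Of 28 rows 13 were positive, and the median log2 fold was -0.03. In either direction 0 were called, where all rows gave 4.99% and rows of like length and level 3.36%. An unadjusted Cuffdiff p under 0.05 was seen for 3, or 10.7%, against 13.8% of rows of like length and level and 17.5% of all rows. Mrps10, a conserved protein of the subunit's head, had 73.4 FPKM in the second and 49.1 FPKM in the first condition of the authors' deposited table. There Mrps10 is listed at 0.58 on the log2 scale (Cuffdiff p 0.00285, q 0.0595 in the authors' deposited table), the member nearest to the threshold among those not called. The approximate interval ran from 0.20 to 0.96. Mrps10 also lies on chromosome 17, from 47368887 to 47381417 on the plus strand.

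Mrps24, the counterpart of bacterial protein S3, stood at 14.8 in the second and 21.1 FPKM in the first condition of the authors' deposited table (Cuffdiff q 0.259). Mrps12, a protein of the decoding site, stood at 143 and 118 FPKM, and Mrps33 at 80.3 and 91.5 FPKM, second condition before first, in the authors' deposited table. Mrps27, which binds RNA, stood at 23.1 in the second and 18.7 FPKM in the first condition in the authors' deposited table. None of these 4 was called, and all 4 have an absolute log2 fold under 0.57, the smallest called among rows of like length and level.

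Mammals carry 3 paralogues of the bacterial protein S18, and these differed in sign. Mrps18b stood at 49.6 in the second and 42.0 FPKM in the first condition (log2 fold 0.24) in the authors' deposited table. Mrps18c stood at 29.8 in the second and 44.1 FPKM in the first condition (log2 fold -0.56, Cuffdiff q 0.230) in the authors' deposited table. Mrps18a, which is built into the large subunit despite its name, stood at 32.1 and 33.7 FPKM, second before first, in the authors' deposited table. The approximate intervals were -0.15 to 0.63 for Mrps18b, -1.07 to -0.06 for Mrps18c and -0.50 to 0.36 for Mrps18a, and they overlap. The differences between the paralogues were not tested. Placed by structure, with Mrps18a and Mrps30 in the large subunit and Mrps36, now known as part of a dehydrogenase complex, left out, 13 of 25 small subunit rows were positive and their median was 0.09.

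**Figure D3:**
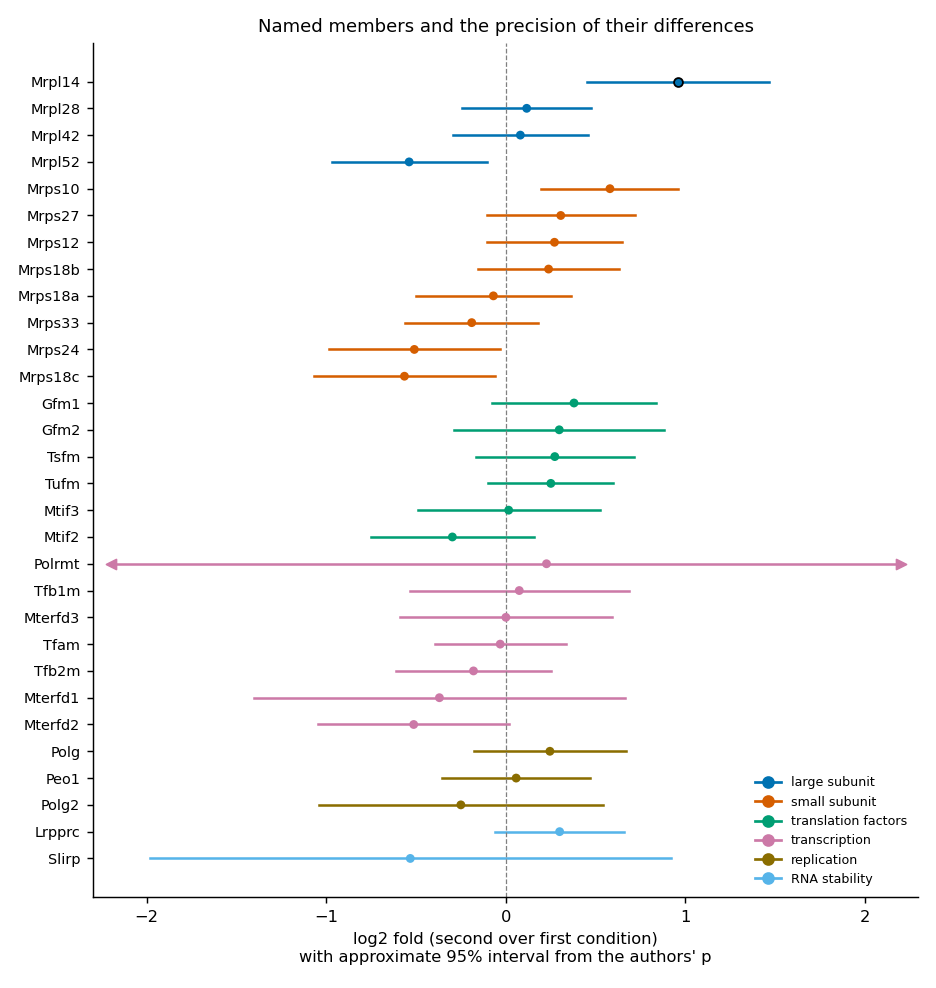
Log2 fold (second over first condition) of the 30 named members as points, with the approximate 95% interval implied by the authors' p as bars, coloured by role; the point with a black rim is the called gene Mrpl14, and the arrows mark Polrmt, whose interval runs beyond the axis to -3.87 and 4.32. Most intervals cross 0.

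The promoters of the members with the largest positive and negative log2 fold in each subunit are shown to compare their sequence, from 250 bases before to 50 bases after the start that RefSeq gives on GRCm38.p6, 5′ to 3′, with matches to the letters searched in capitals. Mrpl14 is at chr17:45686099-45686398, Mrps10 at chr17:47368947-47369246, Mrpl52 at chr14:54426659-54426958 and Mrps18c at chr5:100798509-100798808, all on the plus strand. The RefSeq start lies 27 bases downstream of the GENCODE gene start for Mrpl14, 310 for Mrps10 and 132 for Mrps18c, and 0 for Mrpl52, so the Mrps10 window holds no base before its GENCODE start.
Mrpl14: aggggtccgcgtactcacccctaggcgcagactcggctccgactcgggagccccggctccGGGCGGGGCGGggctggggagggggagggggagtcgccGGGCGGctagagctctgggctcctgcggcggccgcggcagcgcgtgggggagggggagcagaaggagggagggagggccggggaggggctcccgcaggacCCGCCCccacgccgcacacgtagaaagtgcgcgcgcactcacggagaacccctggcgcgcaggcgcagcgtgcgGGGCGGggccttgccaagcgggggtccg
Mrps10: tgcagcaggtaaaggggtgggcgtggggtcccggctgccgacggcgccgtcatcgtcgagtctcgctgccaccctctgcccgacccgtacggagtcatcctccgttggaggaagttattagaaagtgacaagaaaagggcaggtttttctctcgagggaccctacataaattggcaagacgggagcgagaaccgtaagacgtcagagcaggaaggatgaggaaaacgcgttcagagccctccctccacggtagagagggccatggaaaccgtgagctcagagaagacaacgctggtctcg
Mrpl52: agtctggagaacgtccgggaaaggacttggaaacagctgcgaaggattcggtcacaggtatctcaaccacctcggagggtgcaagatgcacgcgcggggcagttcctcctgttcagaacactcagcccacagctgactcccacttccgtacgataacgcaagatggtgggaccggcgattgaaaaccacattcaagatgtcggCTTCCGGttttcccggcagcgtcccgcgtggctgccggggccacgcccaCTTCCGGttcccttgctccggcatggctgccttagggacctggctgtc
Mrps18c: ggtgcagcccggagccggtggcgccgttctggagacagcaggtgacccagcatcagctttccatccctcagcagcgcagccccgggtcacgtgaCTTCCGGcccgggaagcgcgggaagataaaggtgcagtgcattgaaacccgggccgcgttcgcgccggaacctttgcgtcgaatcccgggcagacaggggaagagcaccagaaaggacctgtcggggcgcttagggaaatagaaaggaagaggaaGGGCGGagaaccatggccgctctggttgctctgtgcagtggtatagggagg
The letters searched on both strands were GCATGCGC for NRF1, CCGGAAG for ETS factors such as the one Gabpa encodes, AAGATGGCG for YY1 and GGGCGG for the GC box bound by Sp factors. The Mrpl14 window, at 78.0% G and C, held 5 GC boxes, of which the first pair share a base, and no ETS letters. The Mrpl52 window held 2 ETS matches, that of Mrps18c held 1 ETS match and 1 GC box, and that of Mrps10 held none of the letters.

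Over the set, 81 of 92 symbols matched a RefSeq promoter, with 89 windows. ETS letters were found in 37.1% of the members' windows, 17.6% of the windows of all genes in the table and 8.86% of all RefSeq windows. YY1 letters were in 10.1%, 3.06% and 1.403% of these, and NRF1 letters in 11.2%, 5.35% and 2.71%. GC boxes were in 51.7% of the members' windows, 63.8% of those of all genes in the table and 35.7% of all RefSeq windows. The median log2 fold was -0.12 over 33 members with ETS letters and -0.06 over 48 without, and it was -0.02 over 41 with and -0.17 over 40 without a GC box. It was -0.14 over 10 with and -0.08 over 71 without NRF1 letters, and -0.07 over 9 with and -0.11 over 72 without YY1 letters. These differences were not tested. A match is a description of letters and not a site.

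Translation factors had mostly positive log2 folds, without a call. Of 6 members, 5 were positive, and the median log2 fold was 0.26. Of these 6, 0 were called and 0 had an unadjusted Cuffdiff p under 0.05, where all rows gave 4.99% and 17.5%. Gfm1, the elongation factor that moves the ribosome along the messenger, stood at 44.8 in the second and 34.4 FPKM in the first condition in the authors' deposited table. Tufm, which brings charged transfer RNA to the ribosome, stood at 117 and 98.04 FPKM, and its exchange factor Tsfm at 22.5 and 18.6 FPKM, second before first, in the authors' deposited table. Gfm2, which helps to recycle ribosomes, stood at 8.82 in the second and 7.18 FPKM in the first condition in the authors' deposited table. Of the initiation factors, Mtif2 stood at 5.70 and 6.997 FPKM and Mtif3 at 4.997 and 4.939 FPKM, second before first, in the authors' deposited table. The approximate intervals of all 6 include 0, that of Gfm1 running from -0.07 to 0.84.

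Genes named for transcription showed no call among 7, with 3 positive and a median log2 fold of -0.03. With 4.99% of all rows called, a count of 0 in so few rows says little. Tfam, which packages mitochondrial DNA and opens its promoters, stood at 12.6 in the second and 12.9 FPKM in the first condition in the authors' deposited table. Its approximate interval ran from -0.40 to 0.34. Tfb2m, the initiation factor, stood at 8.71 and 9.86 FPKM, and Tfb1m, which methylates ribosomal RNA, at 7.32 and 6.95 FPKM, second before first, in the authors' deposited table. Mterfd1 and Mterfd2, listed today as Mterf3 and Mterf4 and known to act in ribosome assembly, stood at 14.9 and 2.16 FPKM in the second and at 19.2 and 3.09 FPKM in the first condition in the authors' deposited table. Mterfd3, today Mterf2, stood at 8.62 in the second and 8.61 FPKM in the first condition in the authors' deposited table.

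Polrmt, the mitochondrial RNA polymerase, stood at 8.69 in the second and 7.42 FPKM in the first condition, with a Cuffdiff p of 0.913, in the authors' deposited table. The interval implied for Polrmt, -3.87 to 4.32, is the widest of the set, against a median implied standard error of 0.22 over the members. In 5 members the implied error was above 0.5, and for these the table cannot show a difference of the size seen for Mrpl14. The q threshold is strict, so members with a somewhat smaller error, such as Polg2 at 0.40, could miss a call at that size too. Of the 93 intervals, 82 lay within 1 log2 unit on either side of 0.

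The replication genes were Polg, the catalytic subunit of the mitochondrial DNA polymerase, its partner Polg2, and Peo1, listed today as Twnk, the replicative helicase. Polg stood at 84.6 in the second and 71.3 FPKM in the first condition in the authors' deposited table, while Polg2 stood at 1.39 and 1.65 FPKM. Peo1 stood at 9.65 in the second and 9.26 FPKM in the first condition in the authors' deposited table. None was called. Lrpprc and Slirp form a complex that protects mitochondrial messengers. Lrpprc stood at 22.6 in the second and 18.4 FPKM in the first condition, and Slirp at 40.1 and 58.0 FPKM, in the authors' deposited table. Their log2 folds, 0.30 and -0.53, differed in sign, but the approximate interval of Slirp, -1.98 to 0.92, covers that of Lrpprc, -0.06 to 0.66.

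Transcript length moved with the differences in the whole table, and most members encode short transcripts. The members' median longest transcript was 1498 nt, against 3179 nt over all rows. Over 12155 rows with a known length the log2 fold and length had a Spearman rho of 0.30, and over the 93 members one of 0.20. These are given as descriptions, since genes share the libraries. In the shortest of 10 length groups, up to 1231 nt, 35 members had a median log2 fold of -0.15, where all 1216 rows of that group had -0.22. In the second group, up to 1768 nt, 20 members had a median of -0.0015 and all 1215 rows one of -0.09. The longer groups did not all go this way. In groups 4, 5 and 6, with 16 members, the members' medians were -0.10, -0.24 and -0.14, below the medians of all rows there, -0.05, -0.02 and 0.0020. Over the 10 groups the members' median was above that of all rows in 5 and below it in 5, but the groups hold from 1 to 35 members. Counted by member, 53 lay above and 40 below the median of all rows in their group.

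With the smoothed length trend taken off, the members' median turned to 0.05, that of the large subunit to 0.01 and that of the small subunit to 0.10, while Mrpl14 stood at 1.26 and Mrps10 at 0.75. Mrpl52 at -0.17, Mrps18c at -0.32, Mrps24 at -0.32, Mrps33 at -0.02 and Polg at 0.05 came closer to 0, while Slirp at -0.50 and Mterfd2 at -0.51 moved by less than 0.05. Of the 30 named members, 14 kept their sign and moved by over 1.5 times, 8 away from 0 and 6 towards it. The sign of the median of both subunits thus depends on this step. The median of the translation factors was 0.28 after it, on the same side as before.

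**Figure D4:**
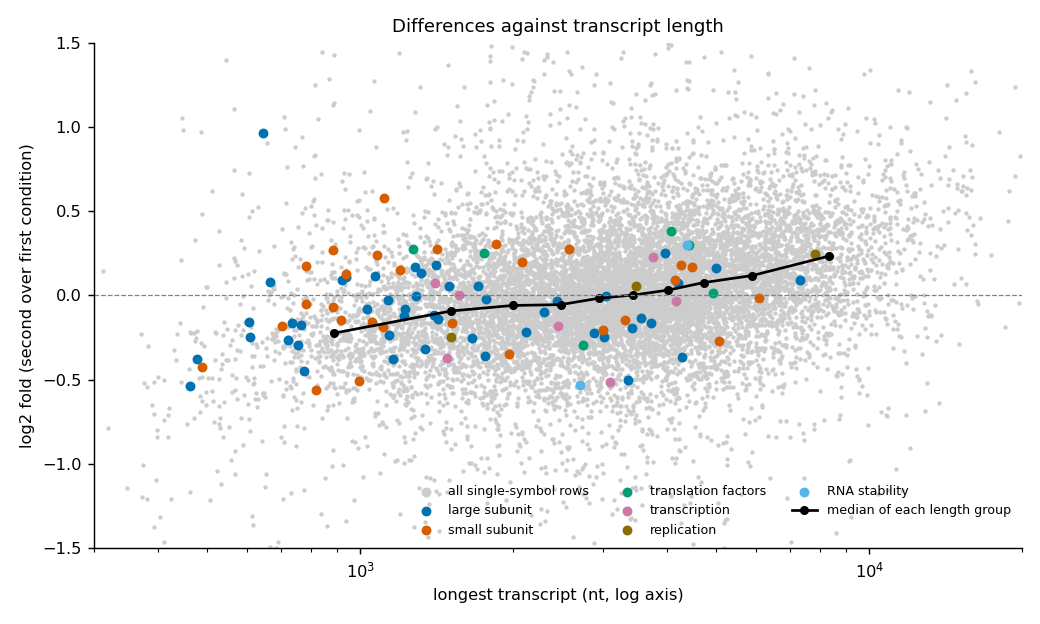
Log2 fold (second over first condition) against the longest transcript of each gene in nt on a log axis, with all single-symbol rows in grey, members coloured by role and the median of each of 10 length groups in black; 262 rows lie beyond the axes. The black line climbs from -0.22 in the shortest to 0.23 in the longest group, and the members lie on both sides of it.

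Other lists of mitochondrial genes, apart from the respiratory chain subunits given below, were drawn up from knowledge of the pathway. They held no call, where 4.99% of all rows were called, and each list is short, with 27 rows at most. Mitochondrial aminoacyl-tRNA synthetases and their partners, which charge transfer RNAs, had 17 of 23 rows positive and a median log2 fold of 0.19. With the length trend taken off that median was 0.17. Vars2, the valine enzyme, had the largest log2 fold among them, 0.44, at 7.41 in the second and 5.45 FPKM in the first condition in the authors' deposited table. Ribosome assembly and rRNA modification genes had 10 of 22 positive and a median of -0.01. Among them Malsu1, an assembly factor that binds the protein made by Mrpl14, stood at 35.8 in the second and 39.2 FPKM in the first condition in the authors' deposited table. RNA processing and decay genes had 7 of 16 positive, with a median of -0.04. Genes of mitochondrial DNA maintenance had 8 of 18 positive, with a median of -0.08. Their log2 folds ran from -0.53 for Mpv17 (Cuffdiff q 0.857) to 0.50 for Atad3a (q 0.137) and 0.72 for Dna2 (q 0.0517), the last just outside the threshold. The tRNA modification genes had 8 of 13 positive, with a median of 0.08. Release and recycling factors had 2 of 6 positive, with a median of -0.06.

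Ribosomal proteins that carry other names, such as Dap3 and Ict1, were listed together with Oxa1l, which is not a subunit of the ribosome. This list had 2 of 7 rows positive and a median log2 fold of -0.04. Mitochondrial import genes had 11 of 27 positive and a median of -0.14. No row was found for any of the 15 transcripts encoded in mitochondria that were looked up, so the output of the machinery is not analysed here.

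Nuclear regulators of these genes leaned upward, with 7 of 9 positive, a median log2 fold of 0.16 and 0 called. The 3 members of the PGC-1 coactivator family were each higher in level in the second condition at an unadjusted Cuffdiff p under 0.05, which 9.96% of all rows reach in that direction. This family was singled out after its values were seen. Ppargc1a, which drives mitochondrial biogenesis in many tissues, stood at 10.8 in the second and 7.67 FPKM in the first condition of the authors' deposited table (Cuffdiff q 0.128). Ppargc1b stood at 1.56 and 0.804 FPKM, with a q of 0.102, and Pprc1 at 21.9 and 17.0 FPKM, with a q of 0.288, second before first, in the authors' deposited table. Nrf1, a factor that binds promoters of mitochondrial genes, stood at 18.4 in the second and 16.4 FPKM in the first condition in the authors' deposited table. Gabpa, the other classical regulator, stood at 19.8 and 18.9 FPKM, second before first, in the authors' deposited table. The negative log2 folds were those of Gabpb1, its partner, at -0.32, and of Yy1, a zinc finger factor, at -0.10, in the authors' deposited table.

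Cytosolic ribosome and respiratory chain genes are set beside the members as a description, with no test of a difference. Cytosolic ribosomal proteins had 8 of 78 rows positive, a median log2 fold of -0.30, and 2 rows called higher and 8 lower. That is 12.8% called, against 4.99% of all rows. Nuclear-encoded subunits of oxidative phosphorylation had 15 of 76 positive, a median of -0.22, and 0 called higher and 4 lower. Their share called, 5.26%, is near that of all rows in either direction, but all of it was lower, where 1.83% of all rows were called lower. At an unadjusted Cuffdiff p under 0.05, 1 of these subunits was higher and 20 were lower, or 27.6%, against 17.5% of all rows. In the cytosolic set 2 were higher and 26 lower at that p, or 35.9%. The members had 38 of 93 positive and a median of -0.07. Transcripts of both other sets are shorter, with medians of 910 and 913 nt, and with the length trend taken off their medians were -0.07 and -0.03, against 0.05 for the members.

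**Figure D5:**
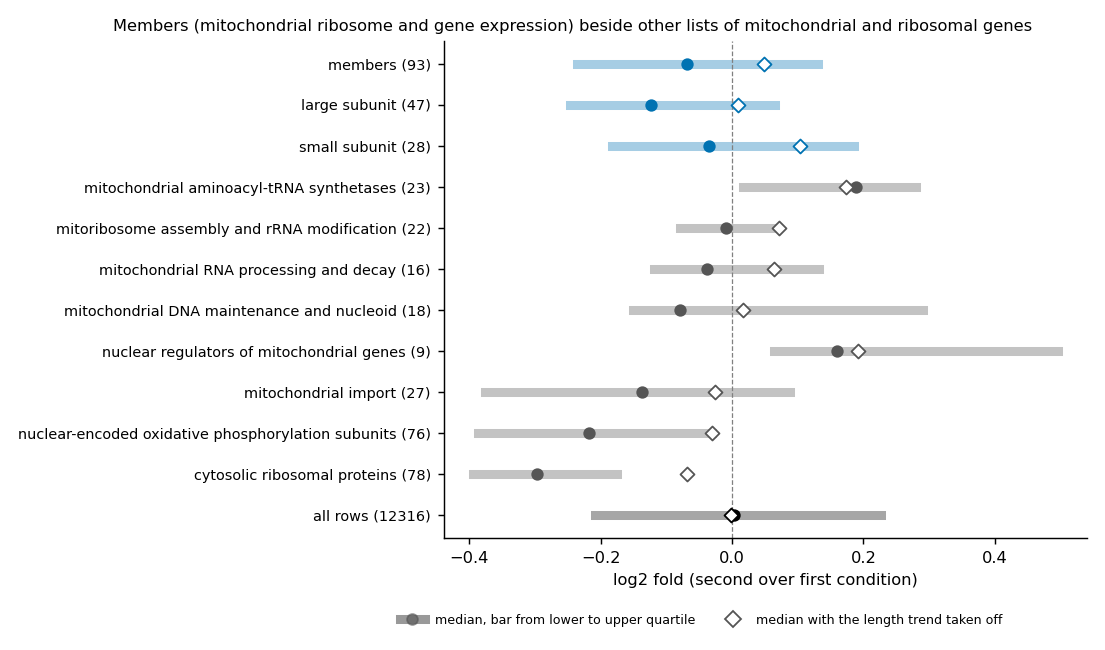
Median log2 fold (second over first condition; filled points) with bars from the lower to the upper quartile, and the median with the length trend taken off (open diamonds), for the members, both subunits, other lists and all rows, with the number of rows in brackets. The aminoacyl-tRNA synthetases lie at 0.19 and the cytosolic ribosomal proteins at -0.30, with a diamond at -0.07 for the cytosolic set.

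The members lie on 18 chromosomes, with 10 of the 92 symbols on chromosome 17, where Mrpl14 and Mrps10 start 1683 kb apart. Of 7 other rows within 200 kb of Mrpl14 and 3 within 200 kb of Mrps10, 0 were called, where 4.99% of all rows were. With so few rows, a count of 0 is no result about the region. The nearest beside Tmem63b was Slc29a1, a nucleoside transporter gene, at 27.3 in the second and 22.0 FPKM in the first condition in the authors' deposited table. Trerf1, the nearest to Mrps10, stood at 4.27 and 3.49 FPKM, second before first, in the authors' deposited table. Exons of 42 members overlap another gene, 38 of them on the other strand, among them Mrpl43 with Peo1 and Mrpl46 with Mrps11. Both genes of each of these pairs are members, and none of the 4 was called.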

How the data were processed

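Poly(A) RNA of 6 libraries was made into sequencing libraries with a SOLiD kit, per the labels. The tools listed in the submitters' processing notes are TopHat2 (2.0.9), Cufflinks (2.2.1) and Cuffdiff (no version), with mm10 as build. The sources used here do not give the annotation or the use of strand. The FPKM levels, 1 for each of 2 conditions, were made by the authors with Cuffdiff and deposited as such; the header states no unit, and FPKM is what Cuffdiff writes there. Per the file headers the columns beside them are the log2 fold, the test statistic (a score), the p-value, the q-value and the authors' flag. All 12316 rows have status OK. No model was refitted, and the depth is unknown.

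The members and lists were chosen with earlier results of these data known. Genes named are Sox4, called members, the 5 largest log2 folds in each direction at a level of at least 1, members at a p under 0.05, all factors, the 3 highest of each subunit in the second condition, the Mrps18 paralogues, the members beside the q threshold and called genes of the other lists, of which 1 is not reported here; further genes were chosen after their values were seen. The approximate standard error is the absolute log2 fold over the normal quantile of the authors' two-sided p. Positions, exon overlaps and longest transcripts are from GENCODE M21 (GRCm38), with 4 members matched by a newer name and a length for 99.4% of single-symbol rows. The length trend is a lowess (span 0.3). Rows of like length and level lie between the members' 5th and 95th percentiles of both, and are not matched row by row. The NRF1 and YY1 letters are shortened forms, taken up after longer ones had been searched. The steps were tested on simulated data, with Python 3.11.15, statsmodels 0.14.6, scipy 1.17.1 and pandas 2.3.3.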

Additional observations from a re-analysis of the deposited data

How the results depend on the processing

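The count of 1 rise and 0 falls was the same at a q of 0.01, with q recomputed over rows at a level of at least 1, with level filters of 1 and 5, and with the sign checked after the length trend was taken off. Beside the 0 falls, 3 members were lower at an unadjusted Cuffdiff p under 0.05. A minimum of 1 on the absolute log2 scale left 0 rises, since Mrpl14 lies just under it. Of 56 alternative medians, 51 stayed within 0.05 of the reported log2 value, but many of these could not move. A level of at least 1 removed 0 members, and centring on all rows took the same small value, 0.0033, off every median. Counting Mrps28 once and placing subunits by structure left the factor groups as they were. With the length trend taken off, the medians of the members, large and small subunit turned to 0.048, 0.0093 and 0.104, and the small subunit turned to 0.0898 by structure, a grouping chosen after seeing the data. The replication median was 0.152 at a level of at least 5, with 1 fewer gene. Mrps18a and Mtif3 changed sign with the length trend taken off, to 0.151 and -0.0652; among 30 named members 0 did so when 1 was added to both levels. Besides these, 22 of 60 alternatives moved a named member by over 0.05, 20 of them with the length trend off, such as Mrpl52 at -0.17, Mrpl42 at 0.38 and Polg at 0.05. Adding 1 to both levels put Polg2 at -0.15, against -0.25. No paired analysis was possible because values per library were not at hand. Leaving out each replicate, the block on p1 or p2 and each Sox4 shRNA alone were not run for the same reason.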

Other observations

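Rows that join a mitochondrial ribosomal protein gene with a neighbour are not members. In the authors' deposited table Mrps6 with Slc5a3 stood at 138 in the second and 157 FPKM in the first condition, Mrps23 with Cuedc1 at 66.1 and 67.1 FPKM, and Mrpl53 with Ccdc142 at 21.7 and 21.6 FPKM. None of the 3 rows was called, where 4.99% of all rows were. The rows of Mrps28 stood at 35.7 and 3.998 FPKM in the second and at 37.0 and 3.54 FPKM in the first condition in the authors' deposited table, with opposite signs, and the table does not say how they differ.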
